A study of Mus musculus with 10 samples.

Results

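The peroxisome proliferator-activated receptors (PPARs) Ppara, Ppard and Pparg and the retinoid X receptors (RXRs) Rxra, Rxrb and Rxrg were examined in mouse interscapular brown adipose tissue. These 6 genes, chosen by symbol, were 6 of the 20295 gene models in the deposited count table. PolyA-selected RNA was sequenced from 10 single-housed male C57BL/6JBomTac mice aged 8 weeks, fed chow. Of these, 5 stayed at 22 °C as controls and 5 were moved to 4 °C for 3 days, the cold group. The labels name no transgene, deletion or drug, and 22 °C, the housing temperature of all mice before the experiment, is itself below the thermoneutral range of a mouse.

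PPARs and RXRs are nuclear receptors that act on DNA as heterodimers, a PPAR with an RXR. Fatty acids and their derivatives bind the PPARs and vitamin A derivatives can bind the RXRs, and ligand binding exchanges corepressor proteins for coactivators. In brown fat, PPARγ is required for adipocyte identity, PPARα is enriched relative to white fat and is tied to fatty acid oxidation, PPARδ is more widely expressed, and RXRs also pair with thyroid hormone, retinoic acid and liver X receptors.

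Library totals were 4446163 to 5776905 counts in control mice and 5676963 to 6923932 in cold mice. Values are CPM, read counts relative to library size, scaled by TMM, and comparisons between genes use CPM per kilobase of counted gene model. Summed markers of brown adipocytes ran from 13641 to 16864 CPM in control libraries and from 23407 to 27195 in cold libraries. The labelled tissue was thus present in all 10. This sum is dominated by Ucp1, and its 10 genes had a median log2 fold change of -0.098, cold over control. Among markers of other cells, the 10 endothelial genes summed to 790 to 1054 CPM in control and 1010 to 1188 CPM in cold libraries. Of these 10, 3 (Kdr, Emcn and Eng) were called higher in cold, at an adjusted p under 0.05 in edgeR's quasi-likelihood test. The share called higher among all genes tested was 10.2%. The 10 had a median log2 fold change of 0.17, with a lowest value of -0.21. The 18 skeletal muscle genes summed to 9.19 to 126 CPM in control and 9.91 to 490 CPM in cold libraries, with the highest sums in cold replicates 2 and 3. Macrophage genes summed to 90.5 to 205 CPM in control and 70.1 to 359 CPM in cold libraries. Of 7 tested macrophage genes, edgeR called 2 higher in cold and limma-voom called 0. The mesothelial and epithelial genes Msln, Upk3b, Wt1, Krt14 and Krt5 were at 0 in all libraries. White adipocyte markers were present at low sums, although Hoxc9 and Hoxc10 were at 0 in all libraries. The 8 white adipocyte genes summed to 53.4 to 193 CPM in control and 29.7 to 139 CPM in cold libraries. Of 6 tested, edgeR called 1 (Nnat) higher in cold and 0 lower. Control replicate 2 and cold replicate 5, which stood apart from their groups in an earlier analysis of these libraries, were also left out together.

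Ppard was the only receptor transcript called different between the groups, and it was higher in cold mice. It was also the least abundant of the 6 per length in control mice. The part of the 250 bases before its annotated start that precedes the first exon of the reference annotation is shown. The reason is that Ppard was the only receptor called, although that call was close to the threshold, as described below. Capitals mark GGGCGG, the core of a GC box, which is the binding sequence of Sp1-type factors.

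Ppard promoter, GRCm38.p6 chr17:28232504-28232699, plus strand, 5′ to 3′: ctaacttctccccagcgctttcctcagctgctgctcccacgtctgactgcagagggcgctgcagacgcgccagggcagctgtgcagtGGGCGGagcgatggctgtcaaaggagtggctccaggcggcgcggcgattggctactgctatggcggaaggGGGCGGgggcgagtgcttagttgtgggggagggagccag

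The sequence is from RefSeq, and the window spans 196 bases. A search of both strands found 2 matches to GGGCGG, a motif held by 23.9% of the 32851 promoter windows in the table when cut to that length. No match was found to TGACG (in 12.3% of windows), to TATAAA (in 9% of windows) or to DR1, the PPAR and RXR element made of AGGTCA repeated after any 1 base (in 0.0244% of windows). In the uncut windows, that element was found with up to 1 mismatch in 0.554% of all windows. It was found in 0 of 11 windows of the 6 receptor genes, too few windows at that share to show a difference. These are matches of letters in a short window and were not measured as binding.

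Counted per length, the order of the transcripts was Pparg, Ppara, Rxrb, Rxrg, Rxra and Ppard. Pparg averaged 195 ± 34.2 CPM per kilobase (SD, n = 5) in control mice and 187 ± 20.7 in cold mice, at the 96.6th percentile of the genes tested over all libraries. Ppara averaged 60.6 ± 18 CPM per kilobase in control and 66.3 ± 10.1 in cold mice. Rxrb followed at 24.2 ± 1.63 and 28 ± 3.94, Rxrg at 18.7 ± 3.19 and 18.7 ± 2.08, and Rxra at 14.6 ± 1.45 and 13.9 ± 1.85 CPM per kilobase. Ppard stood at 8.59 ± 2.04 CPM per kilobase in control and 12.1 ± 1.3 in cold mice, at the 54.7th percentile.

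Several neighbours in that order were not separated by the spread between mice. Rxrb and Rxrg overlapped in control mice, at 22.5 to 26.4 and 16.4 to 24.2 CPM per kilobase, although Rxrb was the higher in each of the 10 libraries. Rxrg and Rxra overlapped in cold mice, at 16.2 to 21 and 11.7 to 16.8 CPM per kilobase. Rxra and Ppard did not overlap in control mice, at 12.2 to 15.8 against 6.73 to 12.1, but did in cold mice, at 11.7 to 16.8 against 11 to 14.3 CPM per kilobase. In the cold group Rxra was the higher of that pair in 4 of 5 libraries. These levels rest on 1 gene model per gene, so isoforms of a receptor could not be told apart. The order also depends on the bases counted, such as 1857 for Pparg, 7207 for Ppara, 2633 for Rxrb and 5267 for Rxra. In CPM, Ppara averaged more than Pparg, at 437 against 361 in control and 478 against 346 in cold mice. Rxra averaged 77.1 CPM in control mice against 63.6 for Rxrb, and 73.2 against 73.8 in cold mice.

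**Figure D1:**
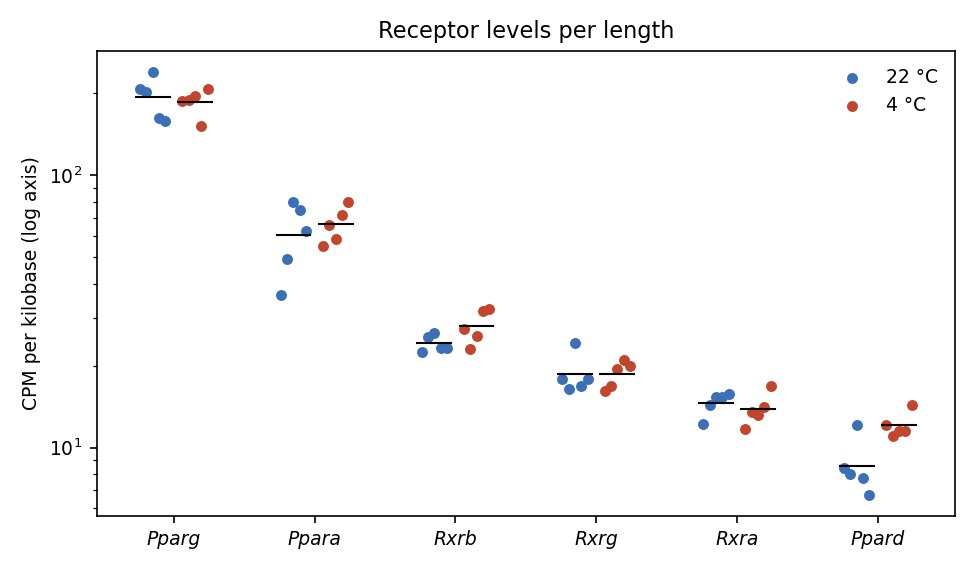
Level of each receptor transcript in CPM per kilobase (log axis) in the 5 control libraries (blue) and 5 cold libraries (red); points are libraries and bars are group means. Pparg lies highest in all libraries, at 152 to 240, and Ppard lowest in the control libraries, at 6.73 to 12.1.

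The test asked whether 3 days of cold changed each receptor's transcript. Across the genome 19.3% of the 11229 genes tested passed an adjusted p of 0.05 in edgeR's quasi-likelihood test, 10.2% higher and 9.14% lower in cold. Of the 6 receptors, 1 passed, in the higher direction, which is 16.7% of them and close to the share among all genes. The groups overlapped for all 6, while 7.39% of genes lay wholly higher and 6.57% wholly lower in cold. In whole tissue, fewer cells of a type and less RNA per cell cannot be told apart, which holds for every value below.

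Ppard encodes PPARδ, the subtype known for fatty acid use in muscle and many other tissues; the gene model is NM_011145, at chr17:28369699-28438414 on the plus strand of mm9. In control replicates 1 to 5 it stood at 27.1, 25.7, 38.8, 24.9 and 21.7 CPM. In cold replicates 1 to 5 it stood at 38.8, 35.4, 36.9, 36.9 and 46 CPM. All 5 cold libraries were above the control median, but control replicate 3 was passed only by cold replicate 5, so the groups overlapped. The mean rose from 27.7 ± 6.56 to 38.8 ± 4.2 CPM (SD, n = 5 each), a log2 fold change of 0.49 (SE 0.14, 95% interval 0.18 to 0.80, adjusted p = 0.0293 in edgeR's quasi-likelihood test), or 1.41-fold.

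The call for Ppard was close to the threshold and rested on 105 to 259 reads per library. Without control replicate 3 the log2 fold change was 0.64 (adjusted p = 0.00292, edgeR) and the remaining groups did not overlap. It did not pass when control replicate 4 or 5 or cold replicate 1, 3, 4 or 5 was left out, with log2 fold changes of 0.41 to 0.51 and adjusted p of 0.0511 to 0.0733, nor without control replicate 2 and cold replicate 5 together (0.40, adjusted p = 0.0648). In the authors' deposited table, Ppard has a log2 fold change of 0.49 and an adjusted p of 0.018. The endothelial marker sum was higher in cold libraries as well, as given above; its part in the Ppard value was not tested.

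Ppara encodes PPARα, the subtype most closely tied to fatty acid oxidation genes; it is NM_001113418, at chr15:85565994-85637281 on the plus strand of mm9. Control replicates 1 to 5 held 263, 356, 578, 538 and 450 CPM. Cold replicates 1 to 5 held 397, 476, 422, 516 and 578 CPM. The control mice differed among themselves by 2.2-fold, from lowest in replicate 1 to highest in replicate 3, and their range enclosed all cold values. The log2 fold change was 0.13 (SE 0.19, 95% interval -0.27 to 0.53, adjusted p = 0.665, edgeR), which leaves room for anything from a 0.828-fold to a 1.44-fold level in cold. Its biological coefficient of variation, 0.214, was at the 89.4th percentile among 500 genes of like level, the highest of the 6 receptors. Ppara lies 120 bases from Cdpf1 on the opposite strand without overlapping it.

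Pparg encodes PPARγ, the subtype required for making and maintaining adipocytes; it is NM_001127330, at chr6:115311239-115440419 on the plus strand of mm9. Values in control replicates 1 to 5 were 387, 377, 446, 302 and 295 CPM. Values in cold replicates 1 to 5 were 348, 353, 365, 282 and 384 CPM. The ranges overlapped almost wholly, with control replicate 3 highest and cold replicate 4 lowest. The log2 fold change was -0.061 (SE 0.12, 95% interval -0.32 to 0.20, adjusted p = 0.758, edgeR).

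Rxrb encodes RXRβ, a broadly expressed heterodimer partner; it is NM_001205214, at chr17:34168757-34175348 on the plus strand of mm9. It was measured at 59.3, 66.9, 69.4, 61.3 and 61.3 CPM in control replicates 1 to 5. The cold replicates 1 to 5 gave 72, 60.9, 67.6, 83.7 and 84.9 CPM. Cold replicates 1, 4 and 5 were above all control libraries, and cold replicates 2 and 3 lay within the control range. The log2 fold change was 0.21 (SE 0.10, 95% interval -0.0063 to 0.43, adjusted p = 0.158, edgeR), and it did not pass in any of the 10 fits without 1 library. Rxrb lies 121 bases from Slc39a7 on the opposite strand without overlapping it.

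Rxra encodes RXRα, the partner best known from liver; it is NM_011305, at chr2:27532721-27618839 on the plus strand of mm9. Its control replicates 1 to 5 read 64.5, 75.3, 81.3, 81 and 83.2 CPM. Its cold replicates 1 to 5 read 61.8, 71.3, 69.7, 74.5 and 88.5 CPM. Replicate 1 was the lowest of both groups and cold replicate 5 the highest of all 10 libraries. The log2 fold change was -0.076 (SE 0.10, 95% interval -0.30 to 0.15, adjusted p = 0.647, edgeR).

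Rxrg encodes RXRγ, the most tissue-restricted RXR, known from muscle and brain; it is NM_009107, at chr1:169528493-169569754 on the plus strand of mm9. Control mice 1 to 5 had 38.2, 34.9, 51.7, 36 and 38.2 CPM. Cold mice 1 to 5 had 34.5, 35.9, 41.5, 44.9 and 42.5 CPM. Control replicate 3 stood above the rest, and both group means were 39.8 CPM. The log2 fold change was 0.0039 (SE 0.12, 95% interval -0.26 to 0.27, adjusted p = 0.986, edgeR). Summed muscle markers were highest in cold replicates 2 and 3, at 490 and 351 CPM; their part in the Rxrg values was not tested.

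**Figure D2:**
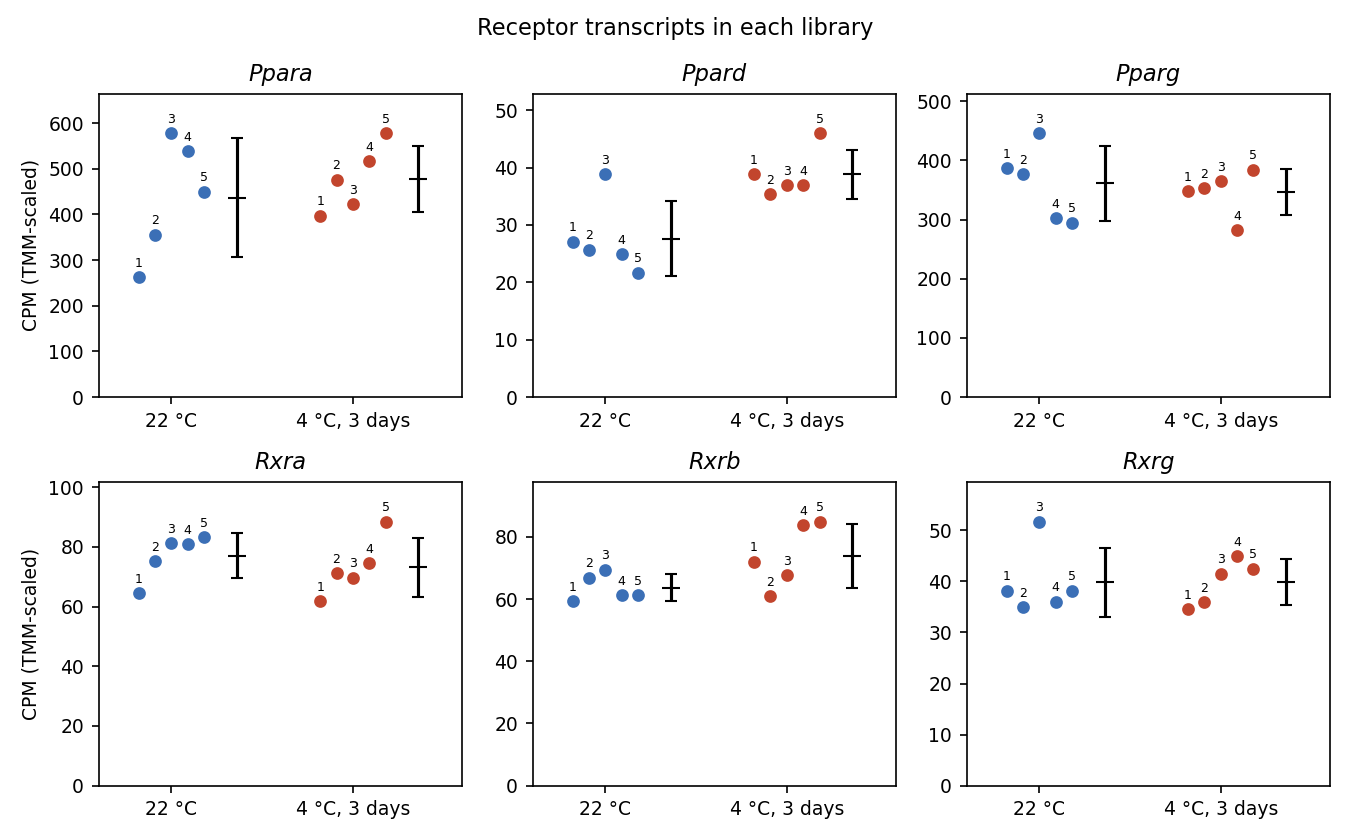
CPM (TMM-scaled) of each receptor transcript in every library, control (22 °C, blue) and cold (4 °C for 3 days, red); numbers are replicates, and the black bar is the mean with SD, n = 5. Ppard means were 27.7 in control and 38.8 in cold mice with control replicate 3 inside the cold range, and the 5 other receptors overlap.

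**Figure D3:**
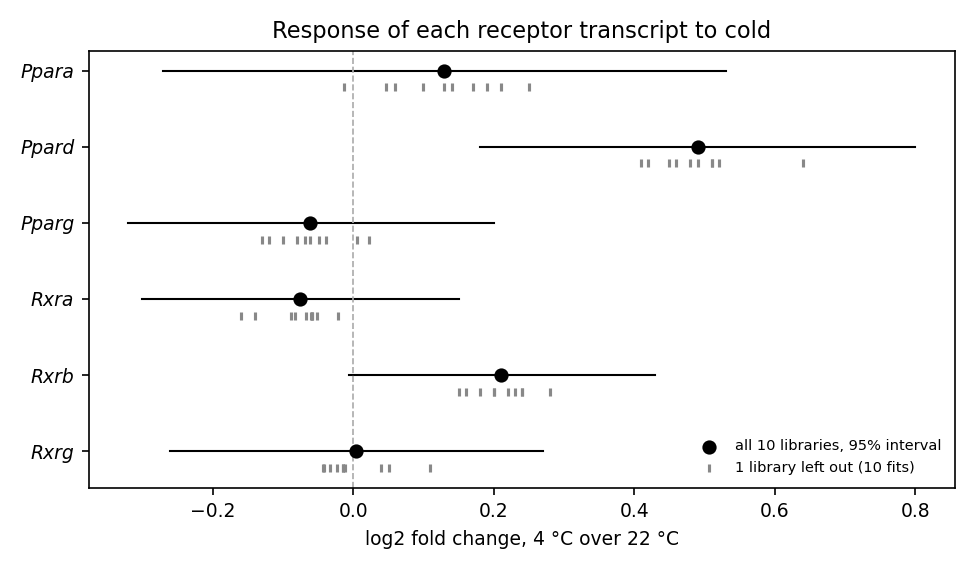
Log2 fold change of each receptor, cold over control, with its 95% interval (black) and the 10 estimates with 1 library left out (grey ticks). The Ppard interval, 0.18 to 0.80, is the only 1 of the 6 that does not include 0.

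The balance within each family was compared next, using the log2 ratio of CPM per kilobase (plus 0.1) of relatives in the same library, which does not depend on library scaling apart from that small constant. Among the 6 pairs, the ratio of Ppard to Pparg passed the test. It ran from -4.65 to -4.31 in control libraries and from -4.10 to -3.72 in cold libraries, so the groups did not overlap. The mean ratio was 0.56 higher in cold on the log2 scale (exact two-sided permutation p = 0.00794, the smallest that 5 against 5 libraries can give; 0.0476 after Benjamini-Hochberg adjustment over the 6 pairs). Control replicate 3, which overlapped the cold group in Ppard alone, also had the highest control value of Pparg. This ratio shares its Ppard reads with the test above and is not independent of it.

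As a share of summed PPAR transcript per length, Ppard was 3.23% ± 0.262 (SD, n = 5) in control and 4.56% ± 0.329 in cold mice. Pparg was 73.7% ± 6.41 in control and 70.4% ± 3.8 in cold mice, and Ppara 23.1% ± 6.46 and 25.1% ± 3.63. The PPAR sum was 264 ± 40.4 CPM per kilobase in control and 265 ± 24.1 in cold mice, so its mean moved by far less than its SD.

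Within the RXRs, the Rxra to Rxrb log2 ratio averaged -0.72 ± 0.14 in control and -1.01 ± 0.18 in cold libraries, a difference of -0.28 (exact two-sided permutation p = 0.0238, adjusted p = 0.0714 over the 6 pairs), which did not pass. It passed without control replicate 1 (-0.32, adjusted p = 0.0476, exact permutation) or without cold replicate 2 (-0.34, adjusted p = 0.0238, exact permutation). Rxrb made up 42.1% ± 2.06 of RXR transcript per length in control and 46.2% ± 2.56 in cold mice, Rxrg 32.4% ± 3.02 and 30.9% ± 1.82, and Rxra 25.5% ± 2.19 and 22.9% ± 1.86. The other 4 ratios did not pass, with exact permutation p of 0.103 to 0.476. Of these, Ppara to Ppard passed without control replicate 1 (-0.50, adjusted p = 0.0476, exact permutation). Per length of the counted models, summed PPAR exceeded summed RXR by 4.58-fold ± 0.398 in control and 4.41-fold ± 0.551 in cold mice.

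**Figure D4:**
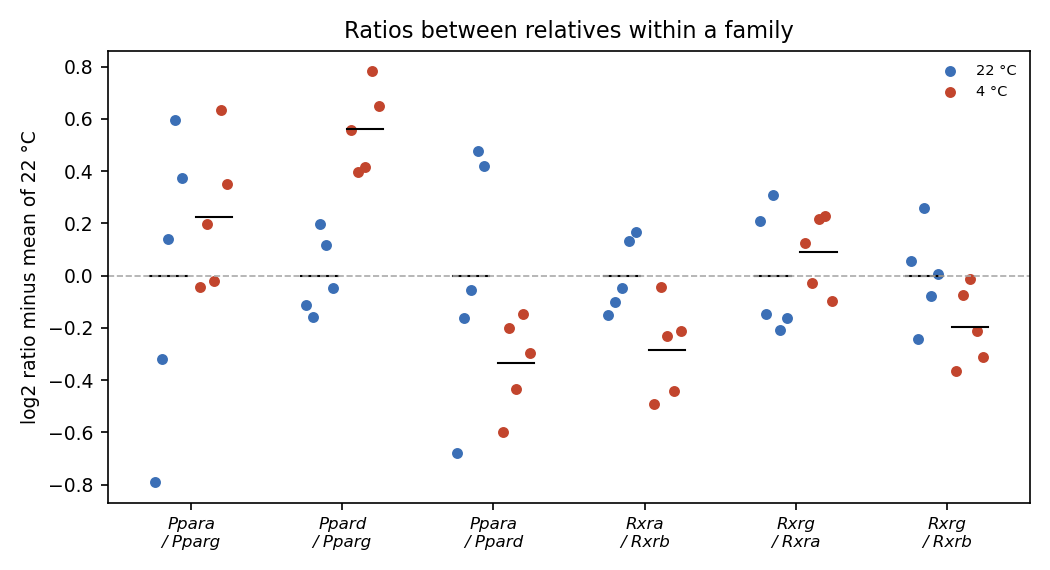
Log2 ratio of each pair of relatives in each library, from CPM per kilobase plus 0.1, minus the control mean of that pair; points are libraries (22 °C blue, 4 °C red) and bars are group means. Only the ratio of Ppard to Pparg, 0.56 higher in cold, passed the adjusted test among the 6 pairs.

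RXRs also serve other receptors, and none of these passed the test in either direction. Of 13 such partners 10 were tested by edgeR's quasi-likelihood test, with 0 called, and their median log2 fold change was -0.15, beside -0.02 for all genes. At an unadjusted p under 0.05 there were 0 higher and 2 lower, and DESeq2 and limma-voom also called 0. The liver X receptor genes Nr1h3 and Nr1h2 were the most abundant per length, at 56.3 ± 2.63 and 39.8 ± 4.42 CPM per kilobase in control and 59.8 ± 5.9 and 35.6 ± 4.11 in cold mice. The thyroid hormone receptor gene Thra stood at 28.8 ± 7.81 and 26 ± 2.25 CPM per kilobase, above Rxrb, Rxrg and Rxra in its control mean and below Rxrb in its cold mean. Thrb averaged 56.2 ± 5.93 CPM in control and 46.4 ± 6.53 CPM in cold mice (log2 fold change -0.27, SE 0.11, adjusted p = 0.105, edgeR), and passed without control replicate 2 and cold replicate 5 (-0.35, adjusted p = 0.0456, edgeR). Nr4a1, an immediate early gene, ranged from 7.24 to 311 CPM in control and from 8.04 to 55.9 CPM in cold mice (-1.86, SE 0.78, adjusted p = 0.114, edgeR).

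Coactivators, which bridge the receptors to chromatin and polymerase, were called higher for 4 and lower for 1 of 33 genes tested, or 15.2%, with a median log2 fold change of -0.056; this share is below the 19.3% of all genes tested, so the called members are described singly. Smarcd1, a subunit of the SWI/SNF chromatin remodelling complex, had 27.1, 23.5, 36.5, 44.8 and 34.7 CPM in control replicates 1 to 5 and 63.9, 67.6, 75.7, 44.6 and 81.4 CPM in the cold ones. Only cold replicate 4 fell within the control range. Its log2 fold change was 0.99 (SE 0.18, adjusted p = 0.00267, edgeR). Smarca4, the ATPase of that complex, rose from 50.7 ± 6 to 66.3 ± 2.41 CPM (log2 fold change 0.39, SE 0.09, adjusted p = 0.00979, edgeR) with no overlap between groups. Ncoa1, a p160 coactivator that binds liganded receptors directly, rose from 53.1 ± 9.71 to 74.8 ± 7.33 CPM (0.50, SE 0.12, adjusted p = 0.0122, edgeR). Helz2, named after its values were seen, rose by 0.43 (adjusted p = 0.0497, edgeR), a call lost without any 1 library other than control replicate 2 or cold replicate 5 (adjusted p of 0.0736 to 0.12), and under other filters (up to 0.0532) or with no scaling factors (0.0502).

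Of the Mediator subunits in the list, only Med12 was called. Med12, of the Mediator kinase module, fell from 69.9 ± 9.02 to 52 ± 7.82 CPM (log2 fold change -0.43, SE 0.12, adjusted p = 0.0233, edgeR), but did not pass without cold replicate 1, 2 or 3 (adjusted p up to 0.0582). Med1, the subunit that binds PPARγ, was at 22.2 ± 1.89 and 23.2 ± 2.17 CPM (0.058, adjusted p = 0.732, edgeR). Ppargc1a, the cold-responsive PPAR coactivator PGC-1α, was 133, 993, 215, 89.8 and 81.5 CPM in control replicates 1 to 5 and 194, 233, 211, 333 and 343 CPM in cold ones. Control replicate 2 was far above every other library. With it the log2 fold change was -0.20 (SE 0.58, adjusted p = 0.836, edgeR), and without it 1.02 (adjusted p = 0.0159, edgeR). Ppargc1b, encoding PGC-1β, was at 59.2 ± 15.6 and 67.9 ± 10.5 CPM (0.20, SE 0.16, adjusted p = 0.426, edgeR). Ncoa7 and Carm1 had log2 fold changes of 0.32 and 0.25 and did not pass. Ncoa7 passed without control replicate 3 (0.40) or cold replicate 5 (0.40). The Carm1 model overlaps Yipf2 by 784 bases on the opposite strand, and the libraries do not mark strand. Whether Carm1 counts hold Yipf2 reads was not tested.

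Corepressors and their associated deacetylases were called lower for 5 and higher for 1 of 22 genes tested, or 27.3%, with a median log2 fold change of -0.11. The share among all genes was 19.3%. Leaving out control replicate 4, cold replicate 3 or cold replicate 4 brought the count lower to 3. In those fits the calls lower over all genes also fell, from 1026 to between 732 and 804. The count higher was 0 when control replicate 5, cold replicate 1 or cold replicate 3 was left out, and 2 when control replicate 2 was. Calls higher over all genes were 936, 918, 823 and 1281 in these fits, against 1142 with all libraries. Hdac1, a deacetylase shared by several repressor complexes, fell from 36 ± 4.37 to 25.3 ± 3.53 CPM (log2 fold change -0.51, SE 0.12, adjusted p = 0.00988, edgeR), with all 5 cold libraries below all control libraries. The scaffolds Sin3a and Sin3b fell by 0.48 and 0.37 on the log2 scale (adjusted p = 0.0146 and 0.0214, edgeR). Their groups did not overlap but nearly touched. The lowest control and highest cold values were both 32.8 CPM after rounding for Sin3a, and 62.3 and 61.7 CPM for Sin3b. Sin3b did not pass without control replicate 4 or cold replicate 3 or 4 (adjusted p up to 0.0576). Cry2, a clock protein that can repress nuclear receptors, fell from 40.9 ± 12 to 23.6 ± 4.36 CPM (-0.80, SE 0.19, adjusted p = 0.0124, edgeR). Its groups overlapped, with 3 of 5 cold libraries below all control libraries. Hdac3, the catalytic partner of the NCoR complexes and named after its values were seen, fell from 62.7 ± 8.05 to 49.5 ± 4.33 CPM (-0.34, SE 0.10, adjusted p = 0.0315, edgeR), a call lost without control replicate 2, 3 or 4 or cold replicate 1, 2, 3 or 4 (up to 0.0805).

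Ncor1, encoding NCoR, a corepressor that holds unliganded receptors, ranged from 107 to 138 CPM in control and 113 to 139 CPM in cold mice (-0.048, SE 0.095, adjusted p = 0.756, edgeR); its model overlaps Ttc19 by 16 bases on the opposite strand. Nrip1, encoding RIP140, a repressor of oxidative genes in fat, stood at 9.02 ± 2.74 and 8.24 ± 1.16 CPM (-0.12, adjusted p = 0.73, edgeR). Cdk5 (-0.24) and Tle3 (-0.29) did not pass; Cdk5 did without control replicate 1 (-0.30) and Tle3 without cold replicate 5 (-0.41).

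Genes that bring, make, convert or restrain fatty acid ligands were called higher for 7 and lower for 1 of 26 tested. This was 30.8% beside 19.3% of all genes, with a median log2 fold change of 0.17. Because members act in opposite ways, these counts do not give a direction of ligand supply. Fabp3, the heart-type fatty acid binding protein, was 351, 390, 435, 368 and 267 CPM in control replicates 1 to 5 and 824, 754, 1123, 929 and 735 CPM in cold ones. Every cold library was above every control library. Its log2 fold change was 1.27 (SE 0.14, adjusted p = 7.64e-05, edgeR). Fabp4, the adipocyte form, was more abundant per length, at 17962 ± 1643 and 21291 ± 1757 CPM per kilobase against 566 and 1364 for Fabp3, and did not pass (0.25, adjusted p = 0.0792, edgeR), but did with DESeq2 (0.0278), limma-voom (0.0474) or without control replicate 2 (0.0337). Ephx2, the soluble epoxide hydrolase that converts fatty acid epoxides to diols, rose from 349 ± 49.3 to 588 ± 43.6 CPM (0.75, SE 0.10, adjusted p = 0.000308, edgeR). Mgll, monoacylglycerol lipase, rose from 989 ± 184 to 1648 ± 186 CPM (0.74, adjusted p = 0.00139, edgeR), and Lmf1, needed to mature lipoprotein lipase, from 43.6 ± 4.2 to 60.2 ± 5.06 CPM (0.47, adjusted p = 0.00417, edgeR).

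Lipase genes varied in their values. Lpl, lipoprotein lipase itself, ranged from 2269 to 8454 CPM in control and 6680 to 8230 CPM in cold mice (log2 fold change 0.75, SE 0.26, adjusted p = 0.0572, edgeR), and passed with all libraries in DESeq2 (adjusted p = 0.0204) and limma-voom (0.0246), and in edgeR without control replicate 2 (1.10, adjusted p = 0.000369). Pnpla2, encoding the triglyceride lipase ATGL, averaged 2890 ± 597 and 2884 ± 440 CPM (-0.0029, adjusted p = 0.991, edgeR), a value whose sign turned with no scaling factors (0.022). Its activator gene Abhd5 had 193 ± 32.7 and 238 ± 15.7 CPM (0.30, adjusted p = 0.0719, edgeR) and passed without control replicate 2 (0.35) or 3 (0.37). Angptl4, a lipoprotein lipase inhibitor and PPAR target, was the 1 member of this list called lower (-0.79, adjusted p = 0.0405, edgeR). Its call was lost with no scaling factors (0.0634), in limma-voom (0.0542) and without any 1 library other than control replicate 1 or cold replicate 1 (0.0508 to 0.0866).

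Retinoid genes, which govern the supply of RXR and retinoic acid receptor ligands, were called for 5 of 11 tested, or 45.5% beside 19.3% of all genes, with 2 higher and 3 lower and a median log2 fold change of -0.32; 12 of the 23 in the table were too low to test. Retsat, which saturates retinol to dihydroretinol, was 199, 338, 284, 201 and 221 CPM in control replicates 1 to 5 and 519, 586, 600, 545 and 567 CPM in cold ones. All cold libraries were above all control libraries. Its log2 fold change was 1.18 (SE 0.14, adjusted p = 0.000106, edgeR). Dhrs9, a retinol dehydrogenase, rose from 42.4 ± 13.2 to 104 ± 22 CPM (1.30, SE 0.20, adjusted p = 0.000909, edgeR).

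The members that fell included other enzymes of alcohol and aldehyde oxidation. Adh1, an alcohol dehydrogenase able to oxidise retinol, fell from 125 ± 17.1 to 75.1 ± 7.07 CPM (log2 fold change -0.74, SE 0.11, adjusted p = 0.000498, edgeR). Aldh1a7, an aldehyde dehydrogenase related to the retinal dehydrogenases, fell from 168 ± 47.6 to 76.1 ± 12.7 CPM (-1.14, SE 0.18, adjusted p = 0.00101, edgeR). It is a close relative of Aldh1a1, so reads shared by the pair could be split between them; Aldh1a1 stood at 16.2 ± 2.13 and 12.5 ± 3.34 CPM (-0.38, adjusted p = 0.152, edgeR). Rbp4, the retinol carrier and named after its values were seen, fell by 0.72 (adjusted p = 0.016, edgeR). Rdh10, which makes retinal for retinoic acid synthesis, was at 17.4 ± 2.19 and 14 ± 2.56 CPM (-0.32, adjusted p = 0.145, edgeR).

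Known PPAR targets were taken as separate lists by function. Of 35 tested targets of fatty acid oxidation, 11 were called higher and 4 lower, or 42.9% beside 19.3% of all genes, with a median log2 fold change of 0.21. The count higher was 7 without control replicate 4 or 5 or cold replicate 1, 2 or 3. In those fits the calls higher over all genes also fell, from 1142 to between 823 and 936. Ucp1, the uncoupling protein, averaged 9123 ± 801 CPM in control and 18532 ± 852 in cold mice (1.02, SE 0.086, adjusted p = 1.18e-05, edgeR). Mlycd, malonyl-CoA decarboxylase, which lowers the inhibitor of fatty acid entry into mitochondria, rose from 168 ± 21.4 to 318 ± 27 CPM (0.92, SE 0.097, adjusted p = 5.51e-05, edgeR). Slc25a20, the carnitine-acylcarnitine carrier, rose from 826 ± 69.3 to 1219 ± 49.1 CPM (0.56, SE 0.076, adjusted p = 0.000316, edgeR). All cold libraries were above all control libraries for these 3 genes. Acot1 and Acot2, both called higher, are near-identical copies whose reads may be split.

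Other oxidation genes were lower or did not pass. Eci1, an enoyl-CoA isomerase of mitochondrial oxidation, fell from 816 ± 40.9 to 575 ± 28.4 CPM (log2 fold change -0.51, SE 0.069, adjusted p = 0.000347, edgeR), and the others called lower included Acaa1a and Acaa2, named after their values were seen; Acaa1a lost its call with no scaling factors (0.085) or without control replicate 4 or 5 or cold replicate 1, 2, 4 or 5 (up to 0.0841). Hadha, the trifunctional protein's alpha subunit, averaged 2949 ± 396 and 3594 ± 310 CPM (0.29, adjusted p = 0.0645, edgeR). It passed with all libraries in DESeq2 (adjusted p = 0.0364), in limma-voom (0.045) and with no scaling factors (0.0207), and without control replicate 1. Cpt1a had 19.8 ± 7.09 and 30.7 ± 7.89 CPM (0.63, adjusted p = 0.0841, edgeR) and passed without control replicate 1 (0.78) or cold replicate 5 (0.75).

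Of 37 tested targets of lipid uptake, storage and adipocyte identity, 4 were called higher and 6 lower, or 27% beside 19.3% of all genes, with a median log2 fold change of -0.0017. Gyk and Gpd1, which supply the glycerol backbone, rose by 1.05 and 0.66 on the log2 scale (adjusted p = 0.000119 and 0.00166, edgeR). Scd1, the fatty acid desaturase, fell from 75536 ± 13174 to 33378 ± 11289 CPM (-1.18, SE 0.20, adjusted p = 0.00152, edgeR). Mgll, given above, and the fatty acid receptor gene Cd36 were the others called higher, and Adipoq, Cebpa, Hcar1, Angptl4 and Cfd the others called lower, named after their values were seen apart from Mgll. Besides Angptl4, the calls lost without 1 library were those of Cd36 (control replicate 4 or 5 or cold replicate 2, adjusted p up to 0.0606) and Cfd (control replicate 5 or cold replicate 4, up to 0.0633). The oxidation and storage lists were not tested against each other. Across all 7 lists 46 of 163 distinct genes were called, with 11 genes in more than 1 list.

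**Figure D5:**
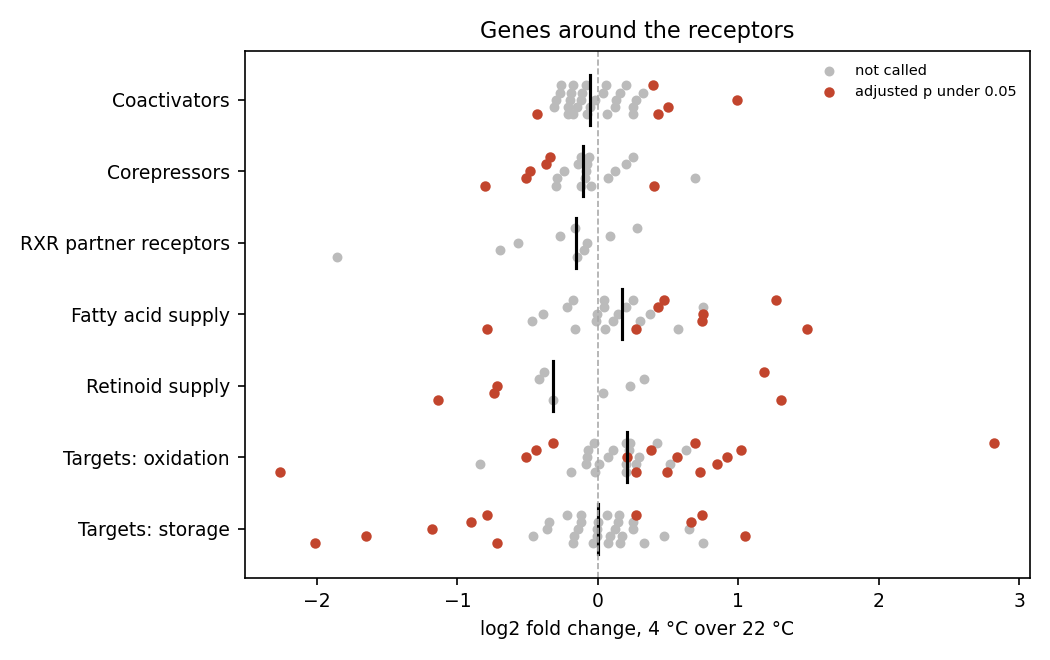
Log2 fold change, cold over control, of every tested gene in 7 lists of genes around the receptors; each point is a gene, red points passed an adjusted p of 0.05 and black bars are list medians. Medians run from -0.32 (retinoid supply) to 0.21 (oxidation targets), beside -0.02 for all genes.

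Finally, the genes whose log2 CPM most resembled each receptor's over the 10 libraries were listed, as a description. They share libraries and depth with the receptors. For Ppard these were Scaf1, Ttc28 and Fnbp1 (Pearson r = 0.96, 0.96 and 0.95), and 0.91, 0.91 and 0.89 after subtracting each group's mean. They were picked from all genes tested by r over these same libraries, so the second set of values is not separate evidence. Ppard, Scaf1, Ttc28 and Fnbp1 each had their largest leave-one-out log2 fold change without control replicate 3 (0.64, 0.48, 1.10 and 0.49). Fnbp1 was itself called higher (log2 fold change 0.39, adjusted p = 0.0277, edgeR), a call lost without control replicate 1, 4 or 5 or cold replicate 1, 4 or 5. Ttc28 (adjusted p = 0.0615, edgeR) and Scaf1 (0.0527) did not pass. Both passed with all libraries in DESeq2 (0.0298 and 0.0338) and limma-voom (0.0205 and 0.0386), and in edgeR without control replicate 3; Scaf1 also passed with upper-quartile scaling (0.0456) and no scaling factors (0.0357).

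For Ppara the closest were Prickle3, Rgl2 and Naa60 (r = 0.95, 0.94 and 0.93), and for Rxra Klc4, Marf1 and Col11a2 (r = 0.95, 0.91 and 0.91). Rxrb most resembled Pde4c, Arl8a and Pabpc4 (r = 0.91, 0.90 and 0.90). Rxrg most resembled Cdk20, Sirt3 and Cep350 (r = 0.91, 0.86 and 0.84). Pparg had no gene above 0.9, with Rel, Tmem245 and Nit1 each at 0.88. All of these genes were likewise picked from all genes tested by r over the same libraries. Some had few reads, with control means of 2.58 CPM for Rel, 2.76 for Col11a2, 3.09 for Pde4c and 3.87 for Cdk20. None of the genes named here for the 5 receptors other than Ppard was called different between the groups.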

How the data were processed

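RNA of interscapular brown adipose tissue of 10 mice was sequenced from 4 µg of total RNA per library with an mRNA kit that does not mark strand, per the labels' protocols. The submitters' processing notes name STAR, edgeR and the mm9 build; which counter and strand setting were used is not stated there, in the labels or in the headers. The authors deposited raw counts per RefSeq gene model with the bases counted, and, as their own comparison, each gene's log2 fold change, log2 CPM, p-value and FDR, per the file headers. Control columns carry no group word and were matched by replicate number; 0 library columns were left unused. Starts were raised by 1 for printing. The totals of 4446163 to 6923932 counts leave Ppard with at least 105 reads per library, so counting error adds to the spread between mice for such low genes.

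Cold was compared with control by a quasi-likelihood test in edgeR 4.0.16 under R 4.3.3, using TMM scaling, filterByExpr and no covariate. Two-sided p-values were adjusted over 11229 genes (Benjamini-Hochberg) with a threshold of 0.05, and the code was tested on simulated data. The SE is the log2 fold change divided by the square root of F. Within-family ratios were tested by exact permutation over the 252 splits. Other scalings and filters, DESeq2 1.42.0, limma-voom (limma 3.58.1), a replicate block and leaving out libraries were tried. All members, lists and tests were chosen with earlier results of these data known.

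The text names the 6 receptors, chosen cofactors, up to 4 called and 2 uncalled genes of smallest p per list, and the 3 genes most correlated with each receptor. Other genes, including Fabp4, Pnpla2, Nr1h2, Nr1h3 and Thra, were chosen after their values were seen. Some genes that the rule selects are counted in their lists but not reported here. Same-numbered control and cold libraries did not deviate together, so the numbers were not treated as pairs. Replicate pairs differed by 3.2 to 36.1 times the counting error (chi-square per degree of freedom), so none was a repeat of another.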

Additional observations from a re-analysis of the deposited data

Results flagged for a closer look

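In 104 groups of 5 libraries checked (named genes and within-family ratios, each in both conditions), 7 had a library separated from the other 4 by a gap that Dixon's test puts beyond its 95% limit; chance alone gives about 1 in 20 such groups. Among the receptors, Rxrg was 51.7 CPM in control replicate 3 and 34.9 to 38.2 CPM in the other control libraries, the same library in which Ppard and Pparg were highest among controls. Control replicate 2 had 993 CPM of Ppargc1a against 81.5 to 215 CPM in the other controls.

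Cold replicate 5 accounts for 5 of the 7. It had 86.6 CPM of Ppargc1b against 62.3 to 64.1 CPM in the other cold libraries, and 26.9 CPM of Med1 against 21.5 to 23 CPM. Its Adh1 was 62.7 CPM, below the 76.4 to 79.8 CPM of the others. Scd1 was 52789 CPM there and 23369 to 31393 CPM in the other cold libraries, and Gpd1 was 28063 CPM against 18800 to 21133 CPM.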

How the results depend on the processing

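Over the 20 alternative fits, the receptor result was not stable at the threshold. The number of receptors called was 1 with all libraries and in each other scaling, filter or tool tried, but 0 with a replicate block and 0 without control replicate 2 and cold replicate 5, and 0 to 1 when 1 library was left out. Ppard kept its direction throughout: its log2 fold change was 0.51 with the replicate block (adjusted p = 0.0504, edgeR), 0.40 without those 2 libraries, and 0.41 to 0.64 with 1 library left out. The other receptors had intervals that span 0, and 3 of them changed sign. Ppara was -0.019 without the 2 libraries and -0.013 to 0.25 with 1 left out, and Pparg was -0.13 to 0.023 with 1 left out. Rxrg was -0.0048 with upper-quartile scaling, -0.0035 without the 20 most abundant genes, -0.00043 with the CPM filter, -0.065 without the 2 libraries and -0.043 to 0.11 with 1 left out. No scaling moved the median of all genes by more than 0.033 on the log2 scale.

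The Ppard to Pparg ratio stayed at 0.50 to 0.61 with 1 library left out. It was 0.56 with the replicate block (adjusted exact p = 0.281) and 0.49 without the 2 libraries (adjusted exact p = 0.171). The smallest exact p is 0.0625 with the block and 0.0286 with 4 against 4 libraries, so 1 pair alone cannot pass in either after adjustment over the 6 pairs. With 1 library left out, the Ppara to Ppard ratio difference was -0.50 to -0.22 and the Rxra to Rxrb one -0.34 to -0.23. The Ppara to Ppard difference passed without control replicate 1 (adjusted exact p = 0.0476). The Rxra to Rxrb difference passed without control replicate 1 (adjusted exact p = 0.0476) or without cold replicate 2 (adjusted exact p = 0.0238).

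Calls over all genes ran from 1563 to 2441 with 1 library left out, against 2168 with all. Counts for the lists moved as follows. Coactivators called lower were 2 without the 2 libraries and 0 to 1 with 1 left out. Corepressors called higher were 2 without the 2 libraries and 0 to 2 with 1 left out, and those called lower 3 to 6 with 1 left out. RXR partners called lower were 1 without the 2 libraries. Fatty acid supply genes called lower were 0 with no scaling factors, 0 with limma-voom, 0 with the replicate block, 2 without the 2 libraries and 0 to 2 with 1 left out. Oxidation targets called higher were 7 with the replicate block and 7 to 13 with 1 left out. Storage targets called higher were 7 with limma-voom. The replicate block moved calls over all genes from 2168 to 1789; same-numbered libraries had correlations of deviations of -0.25 to 0.19, and 2 of 5 control libraries matched their own number best, so the block rests on a number only.

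Single genes that changed sign were these. Ppargc1a was 0.48 with limma-voom, 0.52 with the block, 0.90 without the 2 libraries and -0.45 to 1.02 with 1 library left out, the highest without control replicate 2. Naa60 was -0.051, Cdk20 -0.10 and Cep350 -0.018 without the 2 libraries, and Rel was 0.071 with limma-voom. Pnpla2 was 0.022 with no scaling factors, 0.0083 with limma-voom, 0.0092 with the block, 0.013 without the 2 libraries and -0.10 to 0.11 with 1 left out. With the block, Lpl (adjusted p = 0.0186) and Ttc28 (0.0333) passed and Fnbp1, Helz2, Hdac3, Angptl4, Acaa1a, Cd36 and Cfd did not (0.0532 to 0.0899). With 1 library left out, Med1 ran from -0.0046 to 0.091, Naa60 from -0.094 to 0.091, Rel from -0.31 to 0.27, Klc4 from -0.13 to 0.027, Col11a2 from -0.38 to 0.0016, Cdk20 from -0.031 to 0.33 and Sirt3 from -0.11 to 0.036. Where a value changed, the cause was not tested. Depth limits the low genes most, and Ppard rested on 105 to 259 reads per library.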
